A study of Mus musculus with 14 samples.

Results

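The response of cultured MC-38 cells, a mouse colon carcinoma line, to chromatin of neutrophil extracellular traps (NETs) was read from RNA sequencing of 6 libraries out of the 14 in the series. The libraries were chosen by their titles alone: 3 came from wild-type MC-38 cells cultured without treatment and 3 from the same wild-type cells cultured with NET chromatin that had been collected from neutrophils in culture. Both groups are a single cell line with no genetic change named in the labels, and total RNA was extracted with TRIzol. The labels give neither the amount of NET chromatin nor the length of exposure nor the source of the neutrophils. The other 8 libraries came from GFP-expressing MC-38 cells sorted out of lung tumours, 4 from wild-type and 4 from PAD4 KO mice, which lack the histone-citrullinating enzyme PAD4, and in each genotype 2 came from mice with laparotomy, a surgical opening of the abdomen, and 2 from mice without. These tumour cells are themselves labelled wild-type, and the study as a whole asks how NETs that form after surgery act on cancer cells. Nothing in the labels says that replicates were grown separately, so the p-values measure only how far these 6 libraries vary, and that variation may be technical.

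NETs are webs of decondensed chromatin, histones and granule proteins that neutrophils release into the surrounding space. The DNA can be bound by surface receptors or by nucleic acid sensors inside a cell, and histones and HMGB1 are known to signal through Toll-like receptors. In tumours, NETs are known for trapping circulating cancer cells and for acting on their adhesion and growth.

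Gene counts ran from 8.79 to 12.3 M in the control libraries and from 6.39 to 20.6 M in the NET libraries. With edgeR's quasi-likelihood test, 6363 of 11753 genes tested passed an adjusted p of 0.05 (Benjamini-Hochberg), or 54.1%, with 3093 higher (26.3%) and 3270 lower (27.8%) after NET chromatin. Most of these changes were small: 65% of them were under 1.5-fold, and 258 genes (2.2% of those tested) were at least 2-fold higher and 531 (4.52%) at least 2-fold lower, together 6.71%. Levels are CPM, counts as a rate of the library's total, scaled by TMM factors, which set the median gene's log2 fold change near 0. Scaled by library totals instead, the median gene stood at -0.16 on the log2 scale, and the calls were 1640 higher and 4777 lower, so all changes below are relative to the median gene. A gene was tested if 3 libraries reached a minimum level, and 11035 genes reached it in every library of both groups (26.5% higher, 28% lower). Another 223 reached it in all libraries of the NET group only and 360 in those of the control group only, and for such genes the filter itself favoured a difference. Where a list holds such genes and its counts move, the counts of members that reached the level in both groups follow, a choice made after the data were seen. When the tumour libraries shared the fit, and with it a wider spread, 3716 genes were called. In that fit Cxcl5, Pvrl2, Tlr2, Sel1l, Syvn1, Rps29, Fth1, Jag1, Psmd13, Thbs1, Thbs2, Ccl4, Ccl6, Lcp1, Prtn3, Mmp9 and Lcn2, all named below, did not pass. Reads that fell in no counted gene feature made up 17.6 to 18.2% of reads in control libraries and 21.8 to 24.0% in NET libraries. The unmapped share was 5.94 to 7.04% in controls and 8.45 to 11.5% with NET chromatin. The part of these shifts in the gene results was not tested.

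The colon epithelial label of the line was read against its defining markers. Epcam, an epithelial adhesion protein, had 2, 1 and 1 counts in the control libraries and 2, 2 and 3 in the NET libraries. Cdh1, which encodes E-cadherin, had no count in the controls and 0, 1 and 3 with NET chromatin. Krt8, Krt18, Krt19 and Cdx2 also stayed at 4 counts or fewer in every library, so these epithelial markers were at or near 0 in both groups. Other genes of the list had more. Muc1 had 8, 17 and 14 counts in controls and 2, 5 and 11 with NET chromatin. Vil1 had 9, 8 and 7 counts in controls and 5, 4 and 9 with NET chromatin, and Muc2 had 12, 10 and 11 and then 13, 9 and 23. Of the 17 colon and epithelial genes looked up, 2 had enough counts to be tested, Muc2 and Cdh17, both through the NET libraries only, and Muc2 did not pass. Cdh17, an intestinal cadherin, had 0, 1 and 3 counts in controls and 34, 24 and 99 in NET libraries. Its log2 fold change was 5.21 ± 0.42 (SE), and the filter favoured that rise.

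The interleukin-1 family held the largest rise by fold among genes with a mean of at least 5 CPM, predicted genes left aside. Il33, which encodes an alarmin of the nucleus (chromosome 19, 29925114 to 29960718, GRCm38), stood at 0.321, 0.392 and 0.456 CPM in control libraries and at 12.2, 14.6 and 15.1 CPM with NET chromatin. Il1rl1, the gene of its receptor ST2 (chromosome 1, 40429570 to 40465415), stood at 105, 101 and 94.5 CPM in controls and at 495, 533 and 494 CPM with NET chromatin. Every NET library was above every control library for this ligand and for its receptor. Of all genes tested, 7066 (60.1%) had no overlap between the groups in one direction or the other. That share stands beside each mention of no overlap below. The fold change of Il1rl1 was 2.34 ± 0.07 on the log2 scale (SE, adjusted p = 1.21e-13, edgeR). Il1rn, the antagonist of the interleukin-1 receptor, went from 0.107, 0.392 and 0.228 CPM to 7.95, 5.55 and 5.96 CPM, a log2 fold change of 4.60 ± 0.33. Il1r1, the signalling receptor for interleukin-1, was lower (-0.52 ± 0.13, adjusted p = 0.00343). Of the 12 family members 6 were tested, of which Il33 and Il1rn reached the minimum level in the NET libraries only. Of the other 4, 1 rose and 1 fell. Il1a, Il1b and Il18 had too few counts to be tested.

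Of 25 chemokines, the proteins that draw leukocytes, 17 were tested, and 11 rose and 2 fell. Ccl3, Ccl4 and Ccl9 reached the minimum level in the NET libraries only and Cxcl5 in the controls only. Of the 12 that reached it in both groups, 8 rose and 1 fell, with a median log2 fold change of 0.60. Cxcl1, a ligand that recruits neutrophils, stood at 367, 364 and 371 CPM in controls and at 540, 576 and 535 CPM with NET chromatin. Its groups did not overlap, and it was higher by 0.58 ± 0.06 on the log2 scale (adjusted p = 6.78e-07). Ccl3 went from 0.428, 0.157 and 0.152 CPM to 4.77, 2.86 and 4.64 CPM. Cxcl5, another neutrophil attractant, went the other way, from 3.32, 2.74 and 3.80 CPM to 0, 0.505 and 0.204 CPM. Its log2 fold change was -3.92 ± 0.43, and the filter favoured that fall.

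Genes of immune checkpoints showed a mixed pattern, with 5 of 9 tested members higher and 2 lower, or 3 and 2 of the 7 that reached the minimum level in both groups. The fall of Pvrl2, a ligand of the receptor TIGIT, was not called when control replicate 3 was left out, which left Cd276 alone. Cd274, which encodes PD-L1, stood at 59.3, 50.9 and 59.9 CPM in controls and at 115, 100 and 101 CPM with NET chromatin (log2 fold change 0.89 ± 0.08, adjusted p = 2.03e-07). Cd276, a related ligand, fell from 18.6, 16.1 and 18.5 CPM to 10.0, 6.23 and 7.13 CPM. Neither gene had overlapping groups, as was so for 60.1% of all genes tested. Havcr2, the gene of the receptor TIM-3, rose from 1.18, 0.863 and 1.14 CPM to 4.16, 4.21 and 2.45 CPM. Tigit, the gene of TIGIT itself, rose from 1.07, 0.706 and 1.22 CPM to 8.68, 11.3 and 10.6 CPM. Both Havcr2 and Tigit reached the minimum level in the NET libraries only, so the filter favoured their rise.

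**Figure D1:**
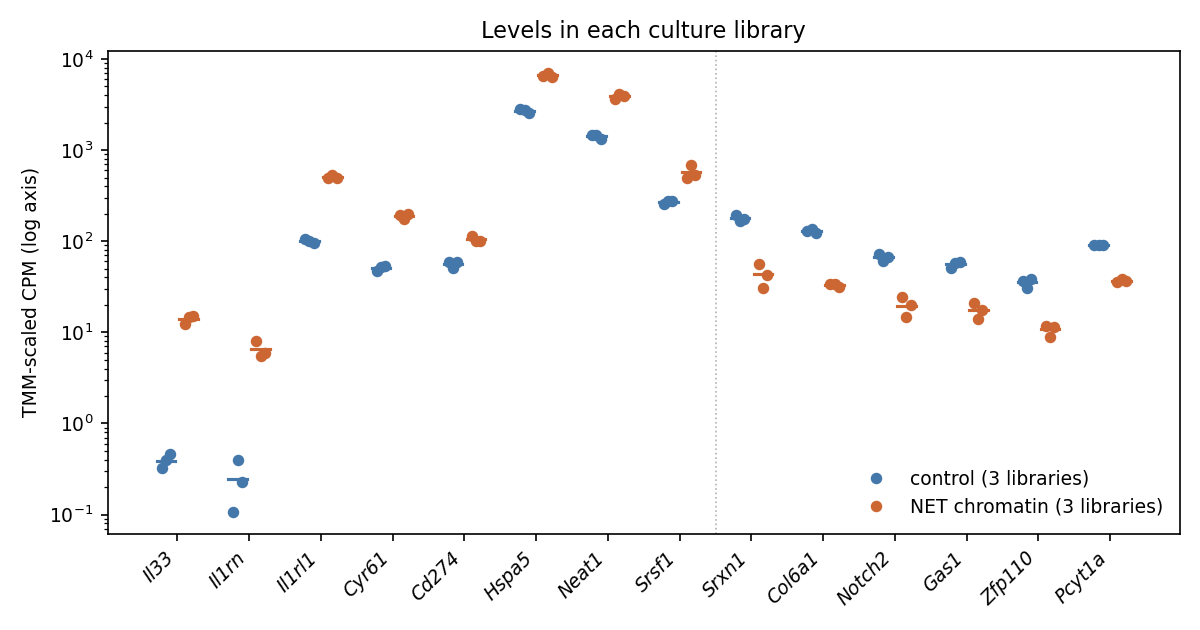
TMM-scaled CPM on a log axis of 14 genes in the 3 control and the 3 NET chromatin libraries, with 1 point a library and a line at each group's mean. In each of the 8 genes left of the dotted line all NET libraries lie above all control libraries, and in each of the 6 genes right of it they lie below.

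Receptors and sensors that could meet NET chromatin moved in different directions. Ccdc25, a receptor for NET DNA, had a log2 fold change of 0.12, or -0.03 with library totals, and did not pass the test. Tlr4, a receptor for bacterial lipid that also answers to histones and HMGB1, stood at 13.6, 13.96 and 18.2 CPM in controls and at 6.36, 5.22 and 6.57 CPM with NET chromatin (-1.30 ± 0.15, adjusted p = 2.25e-06). Tlr2 fell by 1.08 on the log2 scale, while Itgb1, the integrin beta-1 gene, was 0.28 higher and not called with library totals. Of 14 genes in this list 4 rose and 5 fell, 64.3% past the threshold against 54.1% of all genes. Their median of 0.06 became -0.09 with library totals. Among sensors of DNA and nucleases, 1 of 16 tested genes rose and 8 fell (median -0.29). Tmem173, which encodes STING, fell from 9.31, 11.5 and 12.2 CPM to 5.01, 5.22 and 7.13 CPM, and Irf3, the transcription factor downstream of it, fell by 0.80 ± 0.10. Mb21d1, which encodes the DNA sensor cGAS, was lower by 0.46. The exception was Aim2, the DNA sensor of an inflammasome, at 81.8, 76.5 and 74.5 CPM in controls and 98.1, 105 and 93.7 CPM with NET chromatin.

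Chaperones of the endoplasmic reticulum, which fold secreted and membrane proteins, were higher in 17 of 19 members and lower in 1, with a median log2 fold change of 0.45. The lower gene, Sel1l, a part of the degradation machinery of that compartment, was not called when NET replicate 3 was left out. Hspa5, the master chaperone BiP (chromosome 2, 34771970 to 34777547), stood at 2804, 2755 and 2580 CPM in controls and at 6529, 7085 and 6330 CPM with NET chromatin. Its gain in mean CPM was the largest of all called genes other than predicted ones, with no overlap and a log2 fold change of 1.29 ± 0.07 (adjusted p = 6.35e-10). Manf, a secreted factor of the same compartment, went from 144, 141 and 137 CPM to 314, 308 and 293 CPM. Calr, which encodes the calcium-binding chaperone calreticulin, was 0.78 ± 0.07 higher. Another arm of the stress response gave other counts. Of 13 genes known as targets of ATF4 and CHOP, 2 were higher and 4 lower, with a median of -0.06. That put 46.15% of them past the threshold, against 54.1% of all genes. Trib3, a pseudokinase of that arm, fell from 396, 390 and 407 CPM to 205, 136 and 182 CPM. Both lists were chosen after the data were seen.

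The promoter of Hspa5 is shown because this chaperone led its list and because its promoter holds the letters known as the endoplasmic reticulum stress response element. The letters searched on both strands were CCAAT, then 9 bases of any kind, then CCACG, and they overlap the CCAAT box. They occurred in 39 of 32851 RefSeq promoter windows of 300 bases (0.119%), and in 8 of the 17 chaperone genes that had a window. Those were Calr, Canx, Creld2, Dnajc3, Hsp90b1, Hspa5, Pdia6 and Syvn1. None of the 13 genes of the ATF4 and CHOP list, each of which had a window, held them there. The first share counts windows and the others count genes, so they are unlike measures. Both lists were chosen after the data were seen, and a part of these letters in the changes was not tested. The window below is from RefSeq, GRCm38.p6, chr2:34771840-34772139, plus strand, with the matched letters in capitals.
Hspa5: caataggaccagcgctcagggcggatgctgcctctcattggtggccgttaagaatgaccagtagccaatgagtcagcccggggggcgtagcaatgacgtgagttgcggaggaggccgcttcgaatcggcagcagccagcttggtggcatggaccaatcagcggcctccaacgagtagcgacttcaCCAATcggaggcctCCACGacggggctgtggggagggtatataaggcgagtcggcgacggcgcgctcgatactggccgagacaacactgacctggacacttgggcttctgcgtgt

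Transcripts that stay in the nucleus or host small RNAs rose together, with 9 of 11 tested members higher and 1 lower (median 0.66). Neat1, the scaffold RNA of paraspeckles, stood at 1461, 1450 and 1328 CPM in controls and at 3641, 4168 and 3902 CPM with NET chromatin. Malat1, a long RNA of nuclear speckles, went from 1176, 1115 and 1113 CPM to 2304, 2662 and 2052 CPM, and Gas5, a host of small nucleolar RNAs, from 449, 350 and 375 CPM to 756, 769 and 731 CPM. None of these overlapped between groups, and the log2 fold change of Neat1 was 1.47 ± 0.07 (adjusted p = 1.74e-10). Splicing factors of the SR family, which sit in the same nuclear speckles, were higher in 10 of 10 tested genes, with a median of 0.66 and a range from 0.31 for Srsf9, which was not called with library totals, to 1.08 for Srsf1. Srsf1 stood at 256, 278 and 277 CPM in controls and at 497, 684 and 533 CPM with NET chromatin. Of 20 genes of hnRNP proteins, which coat nascent transcripts, 15 were higher and none lower, with 1 lower when control replicate 1 was left out. The SR and hnRNP lists were chosen after the data were seen. The higher share of reads without a gene feature in NET libraries moved with these groups, and its part in them was not tested.

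Genes of the translation machinery gave different counts by class. All 73 tested genes of cytosolic ribosomal proteins were higher, with a median log2 fold change of 0.56 and with the middle of the list between 0.52 and 0.62. With library totals 72 of them were higher and the median was 0.40. Rplp0, a protein of the ribosomal stalk, stood at 2988, 3201 and 3000.0 CPM in controls and at 4315, 4630 and 4653 CPM with NET chromatin. Eef1a1, which brings charged tRNA to the ribosome, went from 8090, 8486 and 7863 CPM to 11634, 12035 and 12268 CPM, and Eef2, which moves the ribosome along, was 0.69 ± 0.07 higher. Groups did not overlap for these 3 genes. The ends of the ribosomal list were Rps29 at 0.38 and Rpl34 at 1.43, and Rpl34 held only 1.93 to 7.95 CPM in any library. Reads that map to several places were tallied outside genes, so genes with near-identical copies such as these are uncertain in level. Of 59 initiation and elongation factors and their regulators, a list chosen after the data were seen, 35 were higher and 5 lower, and with library totals the split was 20 and 12. Eif2ak4, which encodes the amino acid sensor GCN2, was among the lower genes at 82.6, 81.5 and 82.1 CPM in controls and 50.1, 51.7 and 48.8 CPM with NET chromatin. Of 76 ribosomal proteins of mitochondria 19 were higher and 8 lower, 35.5% past the threshold against 54.1% of all genes. Their median of 0.09 became -0.06 with library totals. Of 14 genes often used as references, 10 were higher and 1 lower (median 0.29).

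**Figure D2:**
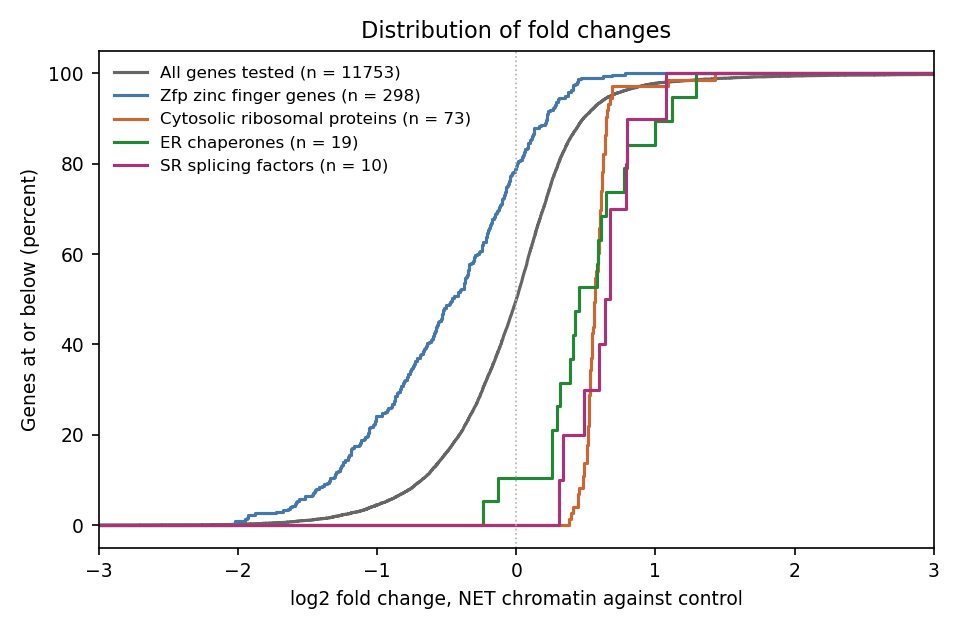
Cumulative percentage of genes at or below each log2 fold change of NET chromatin against control, for all 11753 genes tested and for 4 lists. The curve of the Zfp genes lies left of the curve of all genes, and those of the ribosomal proteins, chaperones and SR factors lie to its right, with medians of -0.46, 0.56, 0.45 and 0.66.

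Zinc finger genes were lower far more often than higher. Most genes with a Zfp symbol encode C2H2 zinc finger proteins, many of which bind DNA and silence genes or transposable elements. Of 298 tested, 170 were lower and 26 higher, with a median log2 fold change of -0.46, and the higher count fell to 11 with library totals. Of these genes 27 reached the minimum level in the controls only. Of the 269 that reached it in both groups 148 were lower and 26 higher, with a median of -0.37, and 53 (19.7%) were at least 2-fold lower, against 3.47% of all genes that reached it in both groups. Zfp110 stood at 37.0, 30.7 and 38.4 CPM in controls and at 11.9, 8.92 and 11.6 CPM with NET chromatin (-1.68 ± 0.12, adjusted p = 2.17e-08). Zfp318 went from 73.5, 62.8 and 70.8 CPM to 32.8, 21.9 and 24.7 CPM, and Zfp408 from 18.6, 18.4 and 18.0 CPM to 4.52, 2.19 and 5.40 CPM. No library of either group overlapped with the other group in these 3 genes. In the related Zbtb, Zkscan and Zscan genes, chosen after the data were seen, 25 of 52 were lower and 9 higher, or 24 and 9 of the 51 that reached the minimum level in both groups (median -0.29). Zbtb34 was the member with the largest rise, 1.01 ± 0.09, and Zbtb7a, a repressor, fell from 25.8, 32.7 and 32.1 CPM to 13.7, 12.6 and 11.1 CPM. The Zfp genes had low levels, a median of 11.6 CPM against 36.4 CPM for all genes tested. Over all genes, the fifth with the lowest levels had a median log2 fold change of -0.15 and the fifth with the highest had 0.16.

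Srxn1 and Nfe2l1 are reported as single genes, each among the largest falls by fold or by CPM. Srxn1, which encodes sulfiredoxin and restores oxidised peroxiredoxins (chromosome 2, 152105516 to 152111376), stood at 192, 167 and 177 CPM in controls and at 56.5, 30.8 and 42.5 CPM with NET chromatin. Nfe2l1, a transcription factor that drives proteasome genes, went from 1057, 995 and 1012 CPM to 480, 326 and 402 CPM. Both fell in every NET library, Srxn1 by 2.03 ± 0.14 and Nfe2l1 by 1.34 ± 0.10 on the log2 scale. Of 37 proteasome subunit genes 14 were higher and 1, Psmd13, lower, with a median of 0.11 that became -0.05 with library totals. Psmd13 was not called with DESeq2, RLE size factors, no filter on low counts, the strand-specific column or the replicate block, nor when NET replicate 1 or 3 or any control library was left out. Of 12 tested genes of iron handling 3 were higher and 3 lower (50% past the threshold against 54.1% of all genes), with a median of 0.05 that became -0.10 with library totals. Fth1, the heavy chain of the iron store ferritin, went from 3005, 3395 and 3058 CPM to 2116, 2019 and 2111 CPM. Tfrc, which encodes the receptor for transferrin-bound iron, moved in the opposite direction, from 397, 386 and 402 CPM to 579, 789 and 620 CPM (0.74 ± 0.09, adjusted p = 4.25e-06).

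The promoter of Srxn1 is shown because the gene is among the 12 largest falls by fold and is a textbook target of the antioxidant response element. The letters searched on both strands were TGANTCA, the AP-1 site, and TGACNNNGC, the antioxidant response element, which can overlap each other. They occurred in 7.81% and 12.4% of all 32851 windows. The Srxn1 window of RefSeq, GRCm38.p6, chr2:152105274-152105573, plus strand, held both, shown in capitals.
Srxn1: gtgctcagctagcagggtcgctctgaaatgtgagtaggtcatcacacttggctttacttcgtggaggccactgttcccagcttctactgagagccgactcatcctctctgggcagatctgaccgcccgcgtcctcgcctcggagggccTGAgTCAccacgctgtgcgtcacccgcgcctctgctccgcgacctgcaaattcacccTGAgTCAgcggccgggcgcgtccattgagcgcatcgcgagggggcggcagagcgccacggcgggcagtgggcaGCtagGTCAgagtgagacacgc

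In the Notch pathway, the receptor gene Notch2 stood at 72.3, 61.1 and 67.0 CPM in controls and at 24.3, 14.6 and 19.9 CPM with NET chromatin (-1.74 ± 0.12, adjusted p = 1.94e-08). Notch1 went from 56.6, 63.4 and 63.8 CPM to 33.8, 20.7 and 26.4 CPM. Hes1, a repressor that Notch can induce, rose from 5.89, 6.59 and 6.16 CPM to 12.7, 14.8 and 13.6 CPM. These 3 genes had no overlap between groups, like 60.1% of all genes tested. Of 11 Notch genes tested 2 rose and 2 fell, 36.4% past the threshold against 54.1% of all genes. The rise of the ligand Jag1, 0.20 on the log2 scale, was not called without NET replicate 1 or 2 or control replicate 1 or 3, nor with library totals.

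In the EGF family the receptors Egfr, Erbb2 and Erbb3 fell by 0.86, 1.05 and 0.89 on the log2 scale. Erbb2 stood at 40.6, 36.2 and 36.9 CPM in controls and at 19.8, 15.7 and 18.5 CPM with NET chromatin. The ligand Areg went from 5.03, 5.57 and 4.11 CPM to 7.95, 10.3 and 8.87 CPM, and the ligand Ereg was 0.83 higher on the log2 scale. Of 11 members 5 rose and 5 fell, and the rises numbered 3 without NET replicate 3, control replicate 1 or control replicate 3. Gas1, a co-receptor of Hedgehog ligands, stood at 50.6, 57.6 and 59.9 CPM in controls and at 20.9, 14.1 and 17.8 CPM with NET chromatin. None of 7 tested Hedgehog genes rose and 4 fell, among them the signal transducer Smo at -0.51.

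Of 22 tested genes of TGF-beta and BMP signalling, 6 rose and 5 fell, or 5 and 5 of the 19 that reached the minimum level in both groups (median -0.08). Of the 22, 50% were past the threshold, against 54.1% of all genes. Smad3, which carries the TGF-beta signal to the nucleus, fell from 48.7, 40.6 and 43.1 CPM to 23.0, 15.99 and 20.9 CPM. Skil, a repressor of that signal, rose from 59.0, 49.2 and 49.1 CPM to 102, 112 and 99.9 CPM. Cyr61, a secreted matrix protein known as a target of YAP, stood at 47.0, 52.8 and 53.1 CPM in controls and at 194, 175 and 199 CPM with NET chromatin. Its groups were far apart, with a log2 fold change of 1.89 ± 0.07 (adjusted p = 1.07e-11). It was not typical of its list. Of 14 tested targets of YAP and TEAD 3 were higher and 4 lower, 50% past the threshold against 54.1% of all genes. With library totals 7 were lower. The lower targets numbered 2 without NET replicate 2 or 3 and 1 without control replicate 3.

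Col6a1, a chain of the type VI collagen of the pericellular matrix (chromosome 10, 76708792 to 76726168), stood at 130.0, 137 and 122 CPM in controls and at 33.9, 34.3 and 31.3 CPM with NET chromatin. It fell by 1.98 ± 0.08 on the log2 scale (adjusted p = 1.07e-11), and Col6a2 fell from 27.7, 32.3 and 28.7 CPM to 5.50, 2.86 and 4.54 CPM. Col7a1, the collagen of anchoring fibrils, rose from 84.4, 96.4 and 89.4 CPM to 132, 140 and 140 CPM. Across the 21 tested collagen genes 8 were lower and 6 higher, with 3 higher without NET replicate 3 or control replicate 1. Of the 19 that reached the minimum level in both groups 8 were lower and 5 higher. Among the genes of laminins, components of basement membranes, Lama3 rose by 1.21 ± 0.19 on the log2 scale and Lamc1 fell from 1131, 1131 and 1122 CPM to 887, 747 and 814 CPM. Dcn, the proteoglycan decorin, went from 11.8, 12.5 and 12.9 CPM to 34.4, 38.2 and 36.7 CPM. Spp1, which encodes osteopontin, was lower by 0.48 ± 0.07. Groups did not overlap in any of these matrix genes, as in 60.1% of all genes tested. The genes of the anti-angiogenic matrix proteins thrombospondin, Thbs1 and Thbs2, were 2.10- and 2.05-fold higher.

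Lipid metabolism is the subject named in the title of the study. Of 12 tested transcription regulators 9 were lower and 2 higher, with a median log2 fold change of -0.46. Mlxip, which encodes the glucose-responsive factor MondoA, stood at 114, 107 and 118 CPM in controls and at 64.0, 52.0 and 58.5 CPM with NET chromatin. Insig1, which holds the sterol sensor in the endoplasmic reticulum, was lower by 0.54 ± 0.08, while its relative Insig2 was 0.36 higher. Srebf1, the gene of a sterol regulatory factor that drives lipid synthesis, fell by 0.45. Pcyt1a, the enzyme that sets the pace of phosphatidylcholine synthesis, went from 91.1, 89.9 and 90.6 CPM to 36.0, 38.0 and 36.2 CPM (-1.31 ± 0.07, adjusted p = 9.31e-10). The Pcyt1a libraries were tight within each group and far apart between groups. Of 17 tested genes of phosphatidylcholine and phosphatidylethanolamine synthesis 8 were lower and 2 higher, with 5 lower without NET replicate 1, NET replicate 3 or control replicate 3. Elovl6, an elongase of fatty acids, stood at 84.0, 71.0 and 77.7 CPM in controls and at 40.6, 30.6 and 36.7 CPM with NET chromatin. Of 15 desaturases, elongases and related enzymes 8 were lower and 2 higher, with 1 higher with library totals and without NET replicate 3, control replicate 1 or control replicate 2. Of 13 acyl-CoA synthetases 5 were lower and 2 higher, or 4 and 2 of the 12 that reached the minimum level in both groups. Of the 13, 53.85% were past the threshold, against 54.1% of all genes. In the sphingolipid pathway Ugcg, the glucosylceramide synthase, rose from 41.4, 38.0 and 38.3 CPM to 71.2, 92.9 and 73.3 CPM, and Sphk2, a sphingosine kinase, fell by 1.45 ± 0.15. Of the 31 genes of that pathway 10 were lower and 4 higher, 45.2% past the threshold against 54.1% of all genes. Without control replicate 1 or 3, 2 were higher.

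Of 35 DNA replication genes 14 rose and 7 fell, with a median of 0.14 that became -0.02 with library totals. Cdc6, a factor that licenses origins, stood at 28.1, 28.2 and 27.7 CPM in controls and at 50.1, 49.6 and 49.8 CPM with NET chromatin. The helicase genes Mcm3 and Mcm4 were higher by 0.54 and 0.55, and Mki67, the proliferation marker Ki-67, fell from 507, 446 and 479 CPM to 260.1, 290 and 256 CPM. Groups did not overlap for any of these, as for 60.1% of all genes tested. Of 15 tested amino acid transporters 10 were lower and none higher (median -0.40), with 1 higher when control replicate 1 was left out. Slc1a5, a glutamine transporter, went from 122, 113 and 131 CPM to 69.7, 50.2 and 63.8 CPM. In the circadian clock, where 6 of 17 genes rose and 5 fell, or 6 and 3 of the 15 that reached the minimum level in both groups, Nr1d1, the repressor REV-ERB alpha, stood at 82.6, 95.1 and 86.8 CPM in controls and at 168, 195 and 190 CPM with NET chromatin. Per1, a core repressor, was 0.91 higher, and Dbp, a clock output gene, fell by 1.19 on the log2 scale. The median of the clock genes was 0.08, and -0.08 with library totals.

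**Figure D3:**
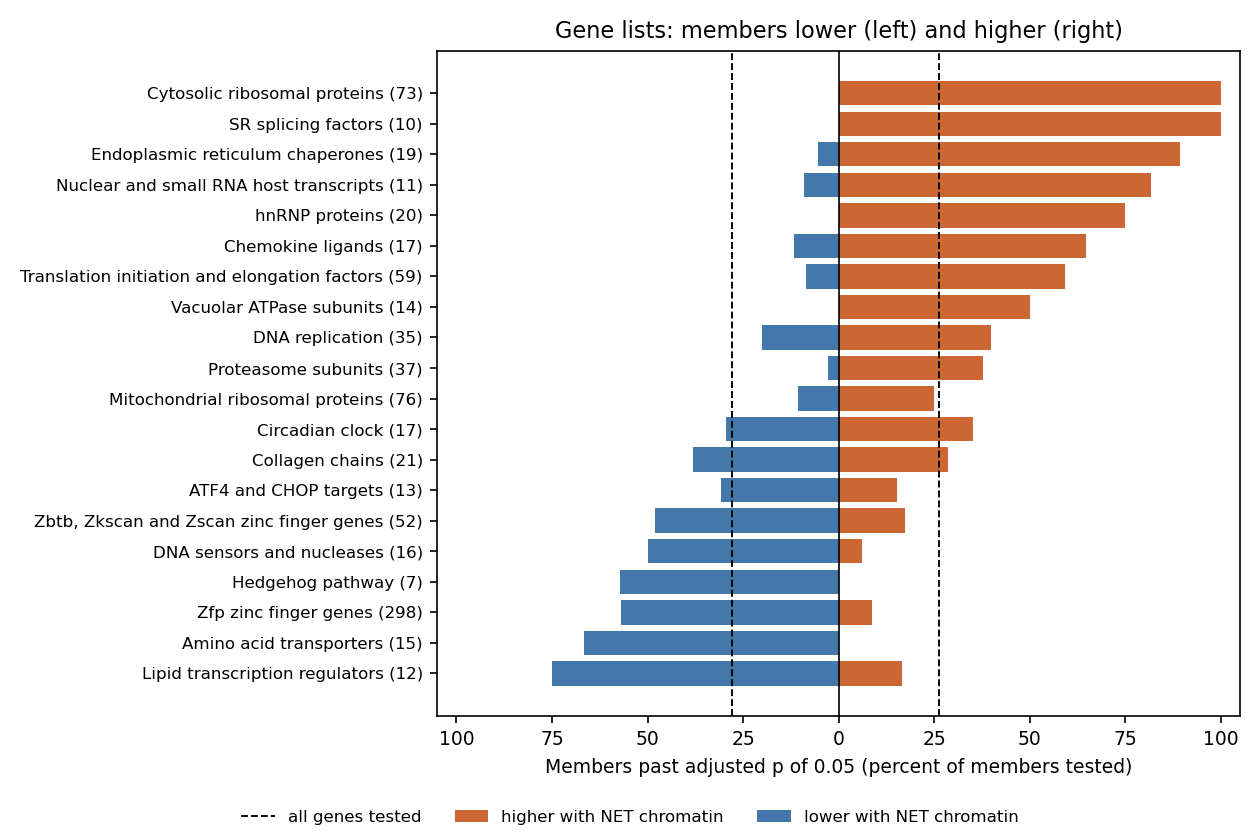
Percentage of tested members past an adjusted p of 0.05 that were higher (right) or lower (left) with NET chromatin in 20 gene lists, with the number tested in brackets and dashed lines at the 26.3% and 27.8% of all genes tested. Ribosomal proteins and SR factors reach the right edge, and the lipid regulators, amino acid transporters and Zfp genes extend furthest to the left.

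A small set of genes was near 0 in the controls and present with NET chromatin. Of the 258 genes at least 2-fold higher, 16 had 3 counts or fewer over all control libraries. Mmp8, the collagenase of neutrophil granules, had 0, 0 and 1 counts in controls and 48, 46 and 115 with NET chromatin, a ratio of 218 per scaled library size (95% exact interval 38.8 to 8663, counting error only). Ccl9, a chemokine of myeloid cells, had no count in the controls and 28, 12 and 69 with NET chromatin, so it was at least 38.0-fold higher against a floor of 3 counts over the group. Ccl6 was at least 27.5-fold and Mmp12, the macrophage elastase, at least 25.1-fold higher on the same floor. Fcer1g, the signalling chain of Fc receptors, had 1 count in all controls together and 17, 13 and 43 in the NET libraries. In the other direction, Aox3, an aldehyde oxidase of the cytosol, had 18, 17 and 25 counts in controls and 1 count in all NET libraries together.

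Lists of markers of other cell types moved in different directions. The 12 pan-leukocyte markers summed to 8.67 to 10.1 CPM in controls and to 23.1 to 25.8 CPM with NET chromatin. Of the 9 tested, 7 reached the minimum level in the NET libraries only, and of the other 2, Lcp1 and Itgb2, Lcp1 was higher, though not called with DESeq2. The 15 monocyte and macrophage markers summed to 93.8 to 111 CPM and to 159 to 181 CPM. Cd68 alone held most of this list's counts in every library, with 834, 1249 and 1029 in controls and 1041, 890 and 2622 with NET chromatin. Of the 7 tested, 3 reached the minimum level in the NET libraries only, and 3 of the other 4 were higher. The defining genes were low: Ptprc, which encodes CD45, had 1, 0 and 0 counts in controls and 5, 8 and 32 with NET chromatin, and Csf1r had none in controls and 11, 6 and 11. The complement gene C1qa had no count in any of the 6 libraries. The 19 neutrophil markers summed to 77.8 to 83.3 CPM in controls and to 63.7 to 67.8 CPM with NET chromatin. That fall was carried by Lcn2, and the other 18 summed to 18.5 to 21.7 CPM in controls and to 41.5 to 42.1 CPM with NET chromatin. Of 4 tested, Prtn3, Mmp9 and Mmp8 were higher and Lcn2 lower, and Mmp8 reached the minimum level in the NET libraries only. Among the neutrophil markers, S100a9 had 0 counts in the controls and 8, 7 and 28 with NET chromatin, Ngp had none in any library, and Lcn2 fell from 64.8, 58.2 and 57.7 CPM to 22.2, 25.4 and 26.1 CPM. Of 14 T and NK cell markers none had enough counts to be tested. Fibroblast markers summed to 141 to 148 CPM in controls and to 156 to 171 CPM with NET chromatin. Of 5 tested, 3 were higher and 2, Col3a1 and Pdgfrb, were lower. Erythroid and platelet markers summed to 20.4 to 21.4 CPM in controls and to 17.2 to 19.3 CPM with NET chromatin. The part of leukocyte transcripts in the results above, those of Il1rn, Ccl3 and Havcr2 among them, was not tested. Whether any of them came in with the NET chromatin, which was collected from neutrophils, was not tested either. In bulk libraries more or fewer cells of a type and more or less RNA per cell cannot be told apart. Padi4, whose enzyme citrullinates histones in NET release, stood at 64.4, 72.1 and 64.8 CPM in controls and at 65.4, 64.3 and 66.0 CPM with NET chromatin, and its change did not pass the test (adjusted p = 0.669, edgeR), while with library totals it was called lower (-0.20, adjusted p = 0.031). Its relative Padi2 rose by 2.65 ± 0.19.

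**Figure D4:**
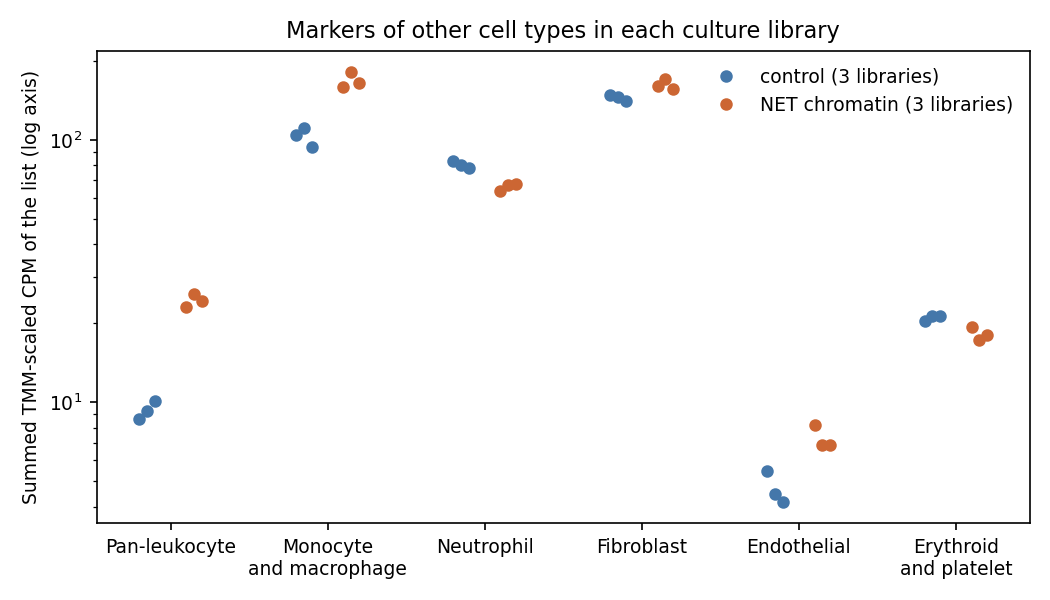
Summed TMM-scaled CPM on a log axis of 6 lists of cell type markers, with 1 point for each of the 3 control and 3 NET chromatin libraries. The pan-leukocyte and monocyte lists lie higher in the NET libraries, at 23.1 to 25.8 and 159 to 181 CPM. Cd68 holds most of the monocyte sum in both groups. The neutrophil list lies lower, at 63.7 to 67.8 CPM, through Lcn2 alone. The other 18 neutrophil markers summed to 18.5 to 21.7 CPM in controls and 41.5 to 42.1 CPM with NET chromatin.

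The genes at least 2-fold higher had a median summed exon length of 2788 bases and 73.3% were protein coding, against 4486 bases and 95.8% for all genes tested. Those at least 2-fold lower were close to all genes, with a median of 4474 bases and 97.3% protein coding. Both classes had low levels, with a median of 2.19 CPM for the higher and 6.38 CPM for the lower genes against 36.4 CPM for all genes. On chromosome 7, 71 of 851 tested genes were at least 2-fold lower, against 4.52% of all genes tested. On chromosome X 118 of 369 were higher and 59 lower, against 26.3% and 27.8% of all genes. These chromosomes were picked from all chromosomes after their values were seen, and no difference between chromosomes was tested.

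The 8 tumour libraries are pooled here over wild-type and PAD4 KO hosts with and without laparotomy. They came from sorted cells and were scaled apart from the cultures, and in them the same genes stood at their own levels. Il33 ranged from 137 to 366 CPM and Il1rl1 from 265 to 1783 CPM there. Neat1 ranged from 55.5 to 131 CPM, Col6a1 from 1871 to 3633 CPM and Cyr61 from 379 to 796 CPM. No difference from the cultures was tested.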

How the data were processed

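RNA sequencing of 6 culture libraries of MC-38 cells (3 control, 3 with NET chromatin) was analysed; the 8 tumour libraries gave levels only and entered 1 alternative fit. The authors deposited gene-wise read counts, made with Trimmomatic, STAR and the mouse build mm10, per the submitters' processing notes, which name no versions, annotation or library kit. Each table held 24411 gene symbols and 4 summary lines, which entered neither library sizes nor tests (no-feature reads 17.6 to 24.0% of reads). The unstranded column was used, in which reads of a gene and its antisense partner cannot be told apart.

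The test was edgeR 4.0.16's quasi-likelihood test under R 4.3.3 (filterByExpr, TMM, estimateDisp, robust glmQLFit, glmQLFTest; 4 residual degrees of freedom; common biological coefficient of variation 0.0633), with Benjamini-Hochberg adjustment over 11753 genes and a threshold of 0.05. On simulated counts with 200 changed genes of 11687, 82, 94 and 100% of 1.5-, 2- and 4-fold changes were recovered, and 12 of 197 calls were false. In the data 54.1% of genes were called, a far larger share, so the simulation does not test the scaling or the error rate there. Lists were described by counts and medians, with no set test. The members, lists and alternatives were chosen with earlier results of these data known, and 6 lists were added after the data were seen. Named genes were the 12 largest rises and falls by fold (mean of at least 5 CPM, no overlap), the 8 largest CPM gains and losses, the 8 with most counts in 1 group and at most 3 in the other, the 4 smallest p of each list, and Padi4; not all are printed, and others named as examples were chosen after their values were seen. Intervals and floors cover counting error only, since the tables hold no molecular identifiers. Gene positions are from GENCODE M21 (GRCm38) and promoter windows from RefSeq (GRCm38.p6). The planned comparison of promoter letters between classes is void, because 61.6 and 79.1% of the genes at least 2-fold higher and lower had a window. Alternatives were DESeq2 1.42.0, RLE size factors, library totals, 2 other filters, the strand-specific column, all 14 libraries, the replicate number as a block, and leaving out each library.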

Additional observations from a re-analysis of the deposited data

How the results depend on the processing

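The 6363 calls became 5461 with DESeq2 and 5006 to 6311 when 1 library at a time was left out, and they moved past 1.5 times only when all 14 libraries shared the fit: 3716 genes, 1857 higher and 1859 lower. In that fit the calls were 4 higher of the chemokines, 5 lower of the DNA sensors, 4 lower of the lipid regulators and 6 lower of the amino acid transporters. Library totals cut the higher calls to 1640, and without a filter on low counts 514 genes, not 258, were at least 2-fold higher. Of the 6363 genes 5364 kept their direction and call with DESeq2 and 4910 with library totals. In the strand-specific column 2 genes were called in the opposite direction, Tvp23a (0.51 and -1.75) and Ccdc167 (0.90 and -0.50). Ccdc25, not called, was at -0.0347 with library totals, and Padi4, not called, ran from -0.0689 to 0.0135 when 1 library was left out and was called lower with library totals (-0.196, adjusted p = 0.031). Deviations of same-numbered libraries correlated at 0.16, 0.12 and -0.12, and control replicate 2 correlated best with NET replicate 3 (0.26). With 3 libraries a group, these values cannot settle whether the replicate numbers pair the samples. With the replicate block 6572 genes were called. Depth limits the low genes, and those with few counts in either group carry wide intervals.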

Other observations

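The genes named in this section were picked from their lists after their values were seen. Subunits of the vacuolar ATPase, which acidifies lysosomes, were higher in 7 of 14 tested genes and lower in none (3 and 1 with library totals). Of 34 lysosomal hydrolase and membrane protein genes 12 were higher and 7 lower (12 and 6 of the 33 that reached the minimum level in both groups). Of the 34, 55.9% were past the threshold, against 54.1% of all genes. With library totals 5 were higher and 12 lower, and 7 were higher when control replicate 3 was left out. Ctsl, a lysosomal protease, stood at 1492, 1428 and 1313 CPM in controls and at 2237, 2356 and 2294 CPM with NET chromatin, and Psap, which encodes the saposins that help break down sphingolipids, was higher by 0.63 ± 0.06 on the log2 scale. Npc1, the lysosomal cholesterol exporter, went from 194, 191 and 185 CPM to 129.5, 121 and 131 CPM. Groups did not overlap in these 3 genes, as in 60.1% of all genes tested. Of 31 autophagy genes 12 rose and 10 fell, with a median log2 fold change of 0.03, and with library totals 6 rose and 12 fell, with a median of -0.13. The falls included the kinase genes Ulk1 and Ulk2 and the transcription factor genes Tfeb, Tfe3 and Mitf, which drive lysosomal genes, at -0.71, -0.53 and -0.72 on the log2 scale. Tfeb and Mitf did not pass with all 14 libraries in the fit. The rises included the membrane components Atg16l1 (0.62) and Gabarapl2 (0.63).

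Of 29 mitosis genes 9 were higher and 7 lower, 55.2% past the threshold against 54.1% of all genes. With library totals 4 were higher and 11 lower. Without NET replicate 2 the higher genes numbered 5, and without NET replicate 3 the lower genes numbered 4. Aspm, a spindle pole protein, stood at 95.9, 81.5 and 92.2 CPM in controls and at 49.1, 42.4 and 43.1 CPM with NET chromatin, while Bub1, a checkpoint kinase, went from 222, 233 and 235 CPM to 313, 412 and 320 CPM. C3, the central complement protein, fell from 156, 149 and 135 CPM to 65.7, 73.2 and 68.4 CPM (-1.09 ± 0.07, adjusted p = 8.84e-09, edgeR). Of the 5 complement genes tested, of which Cfb reached the minimum level in the controls only, 3 fell and 1 rose, and with no filter on low counts 5 fell and 2 rose.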
